A study of Homo sapiens with 18 samples.

Results

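The genes described here are 10 parts of the TGF-beta pathway, picked by name and by role: the ligands TGFB1, TGFB2 and INHBA, the latency and activation genes LTBP1 and THBS1, the receptors TGFBR1 and TGFBR2, the signal transducer SMAD3, its inhibitor SMAD7, and the matrix gene FN1. All 10 were found among the 18475 genes of the expression table. RNA-seq was performed on BEAS-2B cells, an immortalized line from human bronchial epithelium, on A549 cells, a lung adenocarcinoma line, and on H446 cells, a small cell lung cancer line. Each line, labelled wild type, gave 3 control libraries and 3 libraries of cells that received 10 Gy of X-rays and were harvested 24 h later. No separate harvest time is given for the controls. The comparison asks how each line answered radiation. Nothing in the labels says that the 3 libraries of a group came from separate cultures, so p-values measure the spread between these libraries, which may be technical.

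TGF-beta ligands are secreted in a latent form, held by a propeptide that latent TGF-beta binding proteins tether to the extracellular matrix. Once freed by integrins, thrombospondin or proteases, a dimer joins type II and type I receptor kinases, and the type I receptor phosphorylates SMAD2 and SMAD3, which enter the nucleus with SMAD4. In the lung the pathway is known for driving matrix deposition and the mesenchymal change of epithelial cells, and radiation fibrosis is one of the settings in which it has been studied most.

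Expression is given in FPKM, a value scaled to transcript length and to the reads of a library, and the summed FPKM lay between 461255 and 529936 over the 18 libraries. The irradiated BEAS-2B library 2 stood apart. For 12 p53 target genes, its median log2 difference from the line's control mean was 0.06, against 1.09 and 1.41 in the other irradiated BEAS-2B libraries and 1.22 to 1.31 in irradiated A549 cells. In irradiated H446 cells this median lay between -0.04 and 0.04. The Spearman correlation across genes between a library's deviation and transcript GC content ran from 0.35 to 0.46 in the H446 controls and from -0.50 to -0.11 in the irradiated H446 libraries, so GC content moved with the treatment in that line. In BEAS-2B cells this correlation was -0.63, 0.01 and -0.38 in controls and 0.45, 0.70 and -0.31 after irradiation, with the library that stood apart at 0.70, and in A549 cells it lay between -0.13 and 0.17. Several markers went against the labels. None of the 5 measured neuroendocrine markers reached a mean of 1 FPKM in H446 cells, where their summed level was 0.28 to 0.78 FPKM, under the 6.39 to 7.56 FPKM of BEAS-2B cells. In A549 cells 2 of 6 alveolar type II markers (ABCA3 and LPCAT1) reached 1 FPKM, while SFTPB, SFTPC, SFTPD and NAPSA did not. That list's summed level went from 45.4 to 47.0 FPKM in A549 controls to 69.9 to 75.6 FPKM after irradiation, nearly all of it LPCAT1 (means of 37.0 and 61.3 FPKM), a gene higher still in H446 controls (77.4 FPKM). The basal airway marker KRT17 was the 1 of 4 in its list above a mean of 1 FPKM in BEAS-2B controls, at 165 FPKM against 759 FPKM in H446 controls, where KRT14 (2.17 FPKM) passed as well. The summed level of 6 fibroblast markers was 122 to 135 FPKM in BEAS-2B controls, most of it THY1 (mean 112 FPKM), 19.5 to 22.0 FPKM in H446 and 4.51 to 5.06 FPKM in A549 controls. It was 24.9 to 25.5 FPKM in irradiated H446 and 5.84 to 6.10 FPKM in irradiated A549 cells, in both without overlap. The summed level of 6 epithelial markers was lower without overlap after irradiation in H446 cells (3868 to 3998 against 3335 to 3608 FPKM) and A549 cells (1713 to 1798 against 1435 to 1528 FPKM), and higher in BEAS-2B cells (1306 to 1381 against 1412 to 1506 FPKM). The fall in A549 cells was nearly all in KRT7 (means of 834 and 510 FPKM), with KRT19 and EPCAM slightly lower. There KRT8 (533 and 566 FPKM), KRT18 (353 and 371 FPKM) and CDH1 (7.05 and 10.3 FPKM) were higher. The summed mesenchymal level was 1038 to 1080.0 against 1089.5 to 1110.3 FPKM in H446 and 1495 to 1579 against 1369.9 to 1401 FPKM in A549 cells, again without overlap. Other sums shifted without overlap too. In H446 cells the basal airway sum was 724 to 795 against 820 to 919 FPKM and the alveolar type II sum 77.2 to 78.2 against 67.7 to 72.8 FPKM. In A549 cells the immune sum was 26.8 to 30.3 against 30.8 to 34.8 FPKM. The part of these shifts in the results was not tested. The 5 mesenchymal markers were all above a mean of 1 FPKM in every line. Of the 6 epithelial markers 5 reached that mean in the controls of each line. The exception was EPCAM in A549 controls (0.49 FPKM) and CDH1 in BEAS-2B (0.46 FPKM) and H446 controls (0.59 FPKM), against 7.05 FPKM of CDH1 in A549 controls.

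In A549 cells 5 members rose (INHBA, LTBP1, TGFBR1, TGFBR2 and FN1) and 3 fell (TGFB2, THBS1 and SMAD7). In H446 cells 3 members rose (TGFB2, THBS1 and SMAD3) and 0 fell. TGFB2 and THBS1 were therefore called in both cancer lines, in opposite directions. TGFB1, the ligand that gives the pathway its name, passed the threshold in 0 of the 3 lines. No member was called in BEAS-2B cells.

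A call is an adjusted p under 0.05 (limma on log2(FPKM + 1), adjusted by Benjamini-Hochberg over every gene tested in that line). Calls were common in the cancer lines as a whole. Of all genes tested, 51.7% were called in A549 cells (25.3% higher and 26.4% lower), beside 8 of 10 members, and 38.4% in H446 cells (14.8% higher and 23.6% lower), beside 3 of 9 members. The calls in H446 cells were 38.5% higher, or 49.9% with quantile normalization and 51.6% with the GC trend removed. In BEAS-2B cells 0% of 11734 genes were called by limma, although 1446 had an unadjusted p under 0.05, and the count of members was 0 of 9. INHBA was too low to be tested in BEAS-2B and H446 cells, under 1 FPKM in every library. With the irradiated BEAS-2B library 2 left out, 1.99% of genes were called in that line and still 0 of the 8 members tested. The median difference over the members was 0.11 in A549, 0.03 in H446 and 0.05 in BEAS-2B cells on the log2(FPKM + 1) scale, beside medians of 0.00, -0.03 and 0.00 over all genes tested. The median size of the difference, whatever its sign, was 0.28 for the members against 0.16 for all genes in A549 cells, 0.06 against 0.12 in H446 cells and 0.14 against 0.09 in BEAS-2B cells. In bulk RNA, a change in the share of cells expressing a gene and a change in the RNA per cell cannot be told apart.

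**Figure D1:**
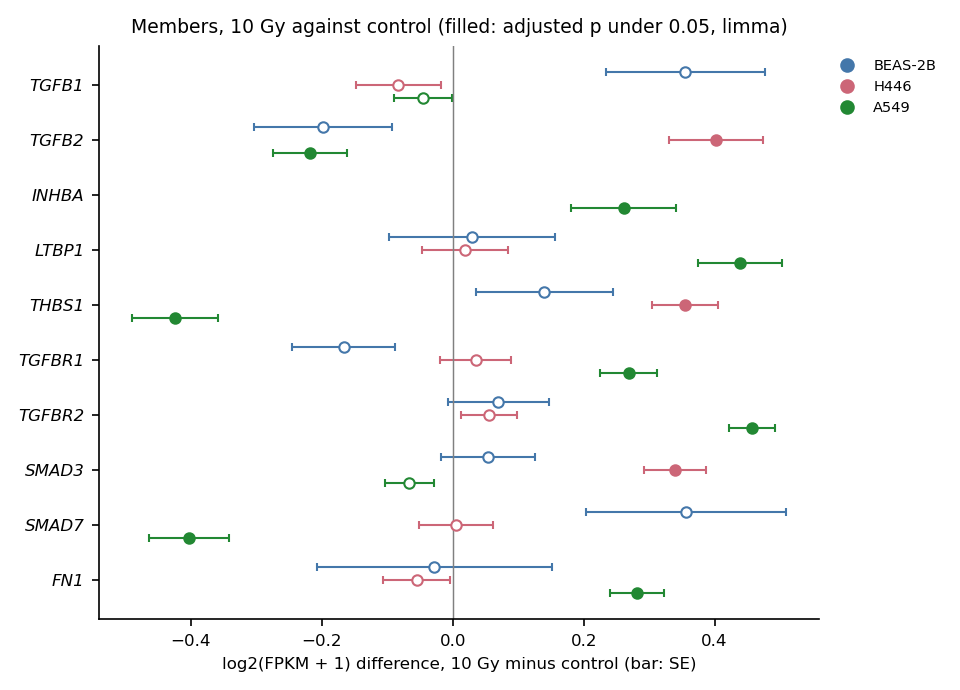
Log2(FPKM + 1) difference, irradiated minus control, of each member in BEAS-2B, H446 and A549 cells. Points are limma estimates from 3 against 3 libraries, bars are standard errors, and filled points passed an adjusted p of 0.05; INHBA has no point in BEAS-2B and H446 cells because it was under the filter. TGFB2 and THBS1 stand to the right of 0 in H446 cells and to the left in A549 cells.

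Among the ligands, TGFB1 (chromosome 19, 41301587 to 41353911, reverse strand; all gene positions are GENCODE 29 on GRCh38) encodes the most studied isoform of TGF-beta. In BEAS-2B cells TGFB1 stood at 20.2, 26.2 and 21.2 FPKM in the control libraries and at 30.5, 32.5 and 24.5 FPKM in the irradiated ones. In H446 cells the values were 15.4, 14.9 and 15.5 FPKM in controls and 16.1, 13.4 and 13.7 FPKM after 10 Gy. In A549 cells they were 109, 114 and 106 and 106, 101 and 112 FPKM. The groups overlapped in every line, with the lowest irradiated BEAS-2B library (24.5 FPKM) under the highest control (26.2 FPKM). The difference on the log2(FPKM + 1) scale was 0.36 ± 0.12 (SE, adjusted p = 0.291) in BEAS-2B, -0.08 ± 0.06 (SE, adjusted p = 0.331) in H446 and -0.05 ± 0.04 (SE, adjusted p = 0.415) in A549 cells. In H446 cells TGFB1 passed without 10 Gy replicate 1 (-0.16, adjusted p = 0.0199) and in no other of 14 alternatives. In BEAS-2B cells the adjusted p of TGFB1 ran from 0.0158 to 0.956 over 14 alternatives and was under 0.05 in 2 of them, the fit with the replicate numbers as a block and the fit of all 18 libraries. TGFB1 is GC-rich (63.5% of its longest transcript), and with each library's trend on GC content removed its differences were 0.22 (adjusted p = 0.476) in BEAS-2B and 0.12 (adjusted p = 0.105) in H446 cells.

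TGFB2 (chromosome 1, 218346235 to 218444619, forward strand) encodes a second isoform, which needs the co-receptor TGFBR3 for tight receptor binding. Its H446 controls held 3.12, 3.35 and 3.40 FPKM and the irradiated H446 libraries 4.25, 4.76 and 5.02 FPKM, so that every irradiated value was above every control. Its A549 controls held 49.8, 48.6 and 47.8 FPKM and the irradiated A549 libraries 38.4, 41.4 and 45.8 FPKM, so that every irradiated value was below every control. TGFB2 rose by 0.40 ± 0.07 (SE, adjusted p = 0.00182) on the log2(FPKM + 1) scale in H446 cells and fell by 0.22 ± 0.06 (SE, adjusted p = 0.00619) in A549 cells. The rise was from a mean of 3.29 ± 0.149 to 4.68 ± 0.392 FPKM (SD, n = 3) and the fall from 48.7 ± 1.02 to 41.9 ± 3.76 FPKM. BEAS-2B cells overlapped, at 53.03, 57.1 and 45.2 FPKM in controls and 47.2, 48.4 and 39.4 FPKM after irradiation. The BEAS-2B difference was -0.20 ± 0.11 (SE, adjusted p = 0.459). With the GC trend removed the rise in H446 cells was 0.34 (adjusted p = 0.00363). The fall in A549 cells had an adjusted p of 0.0528 when all 18 libraries shared 1 fit, the only one of 14 alternatives in which the call was lost.

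INHBA (chromosome 7, 41667168 to 41705834, reverse strand) encodes the beta A subunit of activin A, a ligand of the same superfamily that also signals through SMAD2 and SMAD3. It was all but confined to A549 cells, with 1.69, 1.51 and 1.49 FPKM in controls and 1.93, 2.03 and 2.26 FPKM after irradiation. No irradiated A549 library overlapped a control, and the rise was 0.26 ± 0.08 (SE, adjusted p = 0.0167) on the log2(FPKM + 1) scale. At these low levels that scale understates the change, which was from a mean of 1.56 ± 0.110 to 2.07 ± 0.169 FPKM. The call was lost with quantile normalization, without A549 control replicate 3 and without A549 10 Gy replicate 3, with adjusted p of 0.00124 to 0.0958 over 14 alternatives. BEAS-2B cells held 0.12, 0.07 and 0.04 FPKM in controls and 0.13, 0.13 and 0.07 FPKM after 10 Gy, and the groups overlapped (exact permutation test, two-sided, p = 0.3). H446 controls held 0.01, 0 and 0.02 FPKM and the irradiated H446 libraries 0.01, 0.06 and 0.02 FPKM (exact permutation test, two-sided, p = 0.5). The smallest p that 3 against 3 libraries can give in that test is 0.1.

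**Figure D2:**
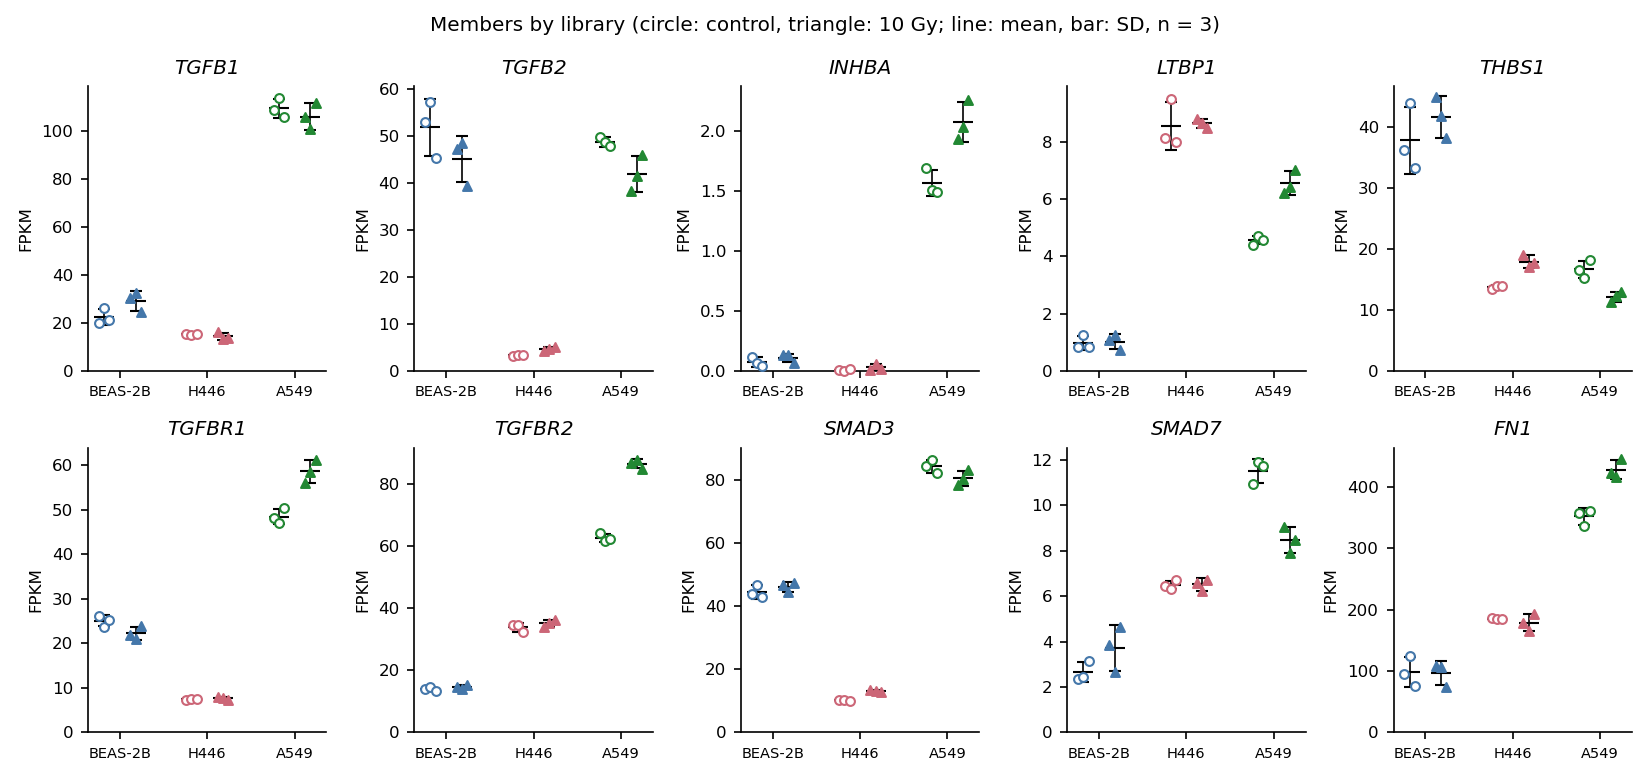
FPKM of the 10 members in each of the 18 libraries, 1 panel per gene with its own axis from 0. Circles are control and triangles irradiated libraries, short lines are means and bars SDs (n = 3). TGFBR2 in A549 cells is well apart, with controls at 61.8 to 64.3 FPKM and irradiated libraries at 85.0 to 88.0 FPKM, while the BEAS-2B groups overlap in every panel.

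LTBP1 (chromosome 2, 32946972 to 33399509, forward strand) encodes the latent TGF-beta binding protein that anchors the latent ligand in the matrix. In A549 cells LTBP1 stood at 4.41, 4.71 and 4.58 FPKM in controls and at 6.22, 6.42 and 7.02 FPKM after irradiation, without overlap, a rise of 0.44 ± 0.06 (SE, adjusted p = 0.000139) on the log2(FPKM + 1) scale. In H446 cells the control values of 8.14, 9.51 and 7.99 FPKM enclosed the irradiated values of 8.79, 8.67 and 8.48 FPKM, and the difference was 0.02 ± 0.07 (SE, adjusted p = 0.842). In BEAS-2B cells LTBP1 was near the filter at 0.84, 1.25 and 0.83 FPKM in controls and 1.07, 1.25 and 0.73 FPKM after irradiation, with a difference of 0.03 ± 0.13 (SE, adjusted p = 0.937).

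The promoter sequences of LTBP1 and FN1 are shown because both hold the full cAMP response element, a motif added after the expression values had been seen, and the pair was picked on it. RefSeq (GRCh38.p14) gave 26 start sites for the 10 members, and the 250 bases before each start were searched on both strands for 2 motifs chosen at the outset and 7 added after the expression values had been seen. Both genes hold the full cAMP response element TGACGTCA, a palindrome bound by CREB and ATF proteins, in 1 window each. It is in capitals in the sequences, which read 5′ to 3′ on the strand of the gene, from chr2:215436069-215436318 (reverse strand) and chr2:32946703-32946952 (forward strand). LTBP1 has other start sites without it.
FN1: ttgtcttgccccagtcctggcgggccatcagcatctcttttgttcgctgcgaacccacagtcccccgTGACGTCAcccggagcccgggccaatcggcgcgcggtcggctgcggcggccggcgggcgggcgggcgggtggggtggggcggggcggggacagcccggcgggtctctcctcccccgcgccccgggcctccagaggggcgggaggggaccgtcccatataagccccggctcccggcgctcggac
LTBP1: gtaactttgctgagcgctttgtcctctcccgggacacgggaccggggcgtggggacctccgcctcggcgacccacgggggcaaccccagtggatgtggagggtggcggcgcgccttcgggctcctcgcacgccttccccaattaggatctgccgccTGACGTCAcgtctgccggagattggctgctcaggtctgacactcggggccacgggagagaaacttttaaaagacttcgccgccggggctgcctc
The element begins 183 bases before the FN1 start and 94 bases before the LTBP1 start, and 1.65% of 35116 promoter windows hold it. A match says only that these letters are present in the window.

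Of the motifs chosen at the outset, the palindromic Smad element GTCTAGAC was in 0 of the 26 windows and in 0.182% of all windows. The AP-1 element TGACTCA, in either orientation, was in 1 of the 26, the window of a downstream start of SMAD3, and in 4.20% of all windows. That window is shown because SMAD3 rose in H446 cells and carries the single match to a motif chosen at the outset. It spans chr15:67125492-67125741 on the forward strand, and the element, in capitals, begins 56 bases before the start.
SMAD3: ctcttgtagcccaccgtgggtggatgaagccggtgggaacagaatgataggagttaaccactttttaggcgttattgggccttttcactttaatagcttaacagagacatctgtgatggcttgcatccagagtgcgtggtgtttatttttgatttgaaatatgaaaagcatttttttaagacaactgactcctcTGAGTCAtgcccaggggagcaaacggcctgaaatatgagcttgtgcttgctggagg
Of the other motifs added later, the E-box CACGTG was in a window of SMAD3 and of TGFB2 (6.34% of all windows), the CArG box in 1 window of TGFBR1 (1.16%), the TATA element TATAA in 4 of the 26 windows (18.9%) and the GC box GGGCGG in 9 of them (42.6%). The CAGA box AGCCAGACA and the TEAD element ACATTCCT were in 0 of the 26 windows, against 0.231% and 0.903% of all windows. TATAA can lie inside a CArG box, and the other motifs hold none of each other.

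THBS1 (chromosome 15, 39581079 to 39599466, forward strand) encodes thrombospondin 1, a matrix glycoprotein that can free latent TGF-beta and that is itself a target of the pathway. In H446 cells THBS1 stood at 13.5, 14.0 and 13.9 FPKM in controls and at 19.1, 17.0 and 17.8 FPKM after irradiation, with every irradiated library above every control. In A549 cells it stood at 16.6, 15.3 and 18.2 FPKM in controls and at 11.3, 12.3 and 12.9 FPKM after irradiation, with every irradiated library below every control. On the log2(FPKM + 1) scale THBS1 rose by 0.36 ± 0.05 (SE, adjusted p = 0.000508) in H446 cells and fell by 0.42 ± 0.07 (SE, adjusted p = 0.000217) in A549 cells. Both calls were kept in all 14 alternatives of their line. With the GC trend removed the H446 difference was 0.35 (adjusted p = 0.000504). BEAS-2B cells held the highest levels of the 3 lines, 36.3, 44 and 33.4 FPKM in controls and 45.0, 41.9 and 38.2 FPKM after irradiation, and the overlapping groups differed by 0.14 ± 0.11 (SE, adjusted p = 0.582).

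Both receptor genes among the members rose in A549 cells. TGFBR2 (chromosome 3, 30606502 to 30694142, forward strand), the type II receptor kinase that binds the ligand first, went from 64.3, 61.8 and 62.5 FPKM in controls to 86.9, 88.0 and 85.0 FPKM in irradiated A549 cells. No irradiated library overlapped a control, and the rise was 0.46 ± 0.04 (SE, adjusted p = 9.05e-07) on the log2(FPKM + 1) scale, the smallest adjusted p of any member in a radiation comparison. In H446 cells TGFBR2 held 34.7, 34.6 and 32.3 FPKM in controls and 34.0, 35.4 and 36.3 FPKM after irradiation. In BEAS-2B cells it held 13.9, 14.6 and 13.3 and 14.8, 14.1 and 15.2 FPKM. The groups overlapped in both of those lines, and the differences were 0.06 ± 0.04 (SE, adjusted p = 0.331) and 0.07 ± 0.08 (SE, adjusted p = 0.708).

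TGFBR1 (chromosome 9, 99104038 to 99154192, forward strand) encodes the type I receptor kinase, also called ALK5, that phosphorylates SMAD2 and SMAD3. In A549 cells TGFBR1 went from 48.1, 47.1 and 50.3 FPKM in controls to 56.1, 58.5 and 61.3 FPKM, without overlap, a rise of 0.27 ± 0.04 (SE, adjusted p = 0.000298). In BEAS-2B cells the order was the other way, with 26.2, 23.8 and 25.3 FPKM in controls and 21.8, 21.1 and 23.9 FPKM after irradiation. These BEAS-2B groups overlapped by a single pair (23.9 FPKM irradiated, 23.8 FPKM control), and their difference of -0.17 ± 0.08 (SE, adjusted p = 0.419) did not pass the threshold. H446 cells held 7.26, 7.58 and 7.48 FPKM in controls and 7.94, 7.70 and 7.31 FPKM after irradiation, with a difference of 0.03 ± 0.05 (SE, adjusted p = 0.639).

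SMAD3 (chromosome 15, 67063763 to 67195195, forward strand) encodes the transcription factor that carries the receptor signal to Smad binding elements. By calls, SMAD3 moved in H446 cells alone, from 10.4, 10.2 and 9.97 FPKM in controls to 13.6, 13.0 and 12.9 FPKM after irradiation. Every irradiated value exceeded every control, and the rise was 0.34 ± 0.05 (SE, adjusted p = 0.000455) on the log2(FPKM + 1) scale, or 0.39 (adjusted p = 0.000134) with the GC trend removed. In A549 cells the levels were 84.6, 86.4 and 82.2 FPKM in controls and 78.3, 80.4 and 83.1 FPKM after irradiation. In BEAS-2B cells they were 43.9, 46.9 and 42.8 and 46.9, 44.4 and 47.4 FPKM. Both lines overlapped, with differences of -0.07 ± 0.04 (SE, adjusted p = 0.163) and 0.05 ± 0.07 (SE, adjusted p = 0.759).

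SMAD7 (chromosome 18, 48919853 to 48952052, reverse strand) encodes the inhibitory Smad, a feedback target of the pathway that recruits ubiquitin ligases to the type I receptor. In A549 cells SMAD7 fell from 10.9, 11.9 and 11.7 FPKM in controls to 9.05, 7.92 and 8.46 FPKM, without overlap, a change of -0.40 ± 0.06 (SE, adjusted p = 0.000168). The H446 groups overlapped, at 6.45, 6.32 and 6.69 FPKM in controls and 6.60, 6.21 and 6.73 FPKM after irradiation, with a difference of 0.00 ± 0.06 (SE, adjusted p = 0.954). In BEAS-2B cells the controls held 2.33, 2.46 and 3.15 FPKM and the irradiated libraries 3.87, 2.65 and 4.65 FPKM. The library at 2.65 FPKM is the one that stood apart on the p53 target genes, and the other irradiated BEAS-2B libraries both exceeded every control. The BEAS-2B difference was 0.36 ± 0.15 (SE, adjusted p = 0.387) with that library and 0.53 (adjusted p = 0.0594) without it.

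FN1 (chromosome 2, 215360440 to 215436172, reverse strand) encodes fibronectin, a matrix protein that TGF-beta induces in many cells, and was the most abundant member in every line. In A549 cells FN1 rose from 358, 336 and 361 FPKM in controls to 422, 416 and 445 FPKM, without overlap, by 0.28 ± 0.04 (SE, adjusted p = 0.000136) on the log2(FPKM + 1) scale. The call was lost when all 18 libraries shared 1 fit (adjusted p = 0.112). In H446 cells the controls held 187, 184 and 185 FPKM and the irradiated libraries 178, 165 and 193 FPKM. In BEAS-2B cells the values ran over 95.2, 125 and 76.0 FPKM in controls and 108, 107 and 73.8 FPKM after irradiation. The BEAS-2B libraries of 1 treatment thus differed from each other by more than the treatments did, and the differences were -0.05 ± 0.05 (SE, adjusted p = 0.417) in H446 and -0.03 ± 0.18 (SE, adjusted p = 0.958) in BEAS-2B cells.

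Counted by overlap of the 3 control and 3 irradiated values, 8 of 10 members were apart in A549 cells, where 58.5% of tested genes were, and 3 of 9 tested members in H446 cells, where 50.3% were. In BEAS-2B cells 0 of 9 tested members were apart, against 16.4% of tested genes.

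Before irradiation the members differed widely between the lines. Among controls, A549 cells had the highest level of TGFB1, INHBA, TGFBR1, TGFBR2, SMAD3, SMAD7 and FN1, BEAS-2B cells that of THBS1, and H446 cells that of LTBP1. TGFB2 was high in BEAS-2B cells (51.8 ± 6.07 FPKM, SD, n = 3) and A549 cells (48.7 ± 1.02 FPKM) and low in H446 cells (3.29 ± 0.149 FPKM). BEAS-2B and A549 cells, neighbours in that order, differed by 0.08 ± 0.07 (SE, adjusted p = 0.317) on the log2(FPKM + 1) scale, which did not pass the threshold with all libraries and did without BEAS-2B control replicate 3 (0.17, adjusted p = 0.0116). The other pair of neighbours that did not pass was INHBA in BEAS-2B and H446 cells (0.09 ± 0.06 SE, adjusted p = 0.159), which passed with a pseudocount of 0.1 (0.66, adjusted p = 0.0057). INHBA was under 1 FPKM in both of these lines and was tested through its level in A549 cells, so it had to differ from them and is left out of the counts that follow. Of the 9 other members, A549 against H446 controls gave 8 higher and 1 lower, where 84.4% of all genes were called, 43.1% higher and 41.4% lower. BEAS-2B against A549 controls gave 1 member higher and 7 lower, where 85.1% of all genes were called, 46.3% higher and 38.8% lower. BEAS-2B against H446 controls gave 5 members higher and 4 lower, where 82.6% of all genes were called, 46.7% higher and 36% lower.

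The order of the lines was not the same for every member. TGFB1 stood at a mean of 109 ± 4.03 FPKM in A549, 22.5 ± 3.24 FPKM in BEAS-2B and 15.3 ± 0.289 FPKM in H446 controls. SMAD3 followed the same order, at 84.4 ± 2.11, 44.5 ± 2.11 and 10.2 ± 0.215 FPKM. TGFBR1 did so as well, at 48.5 ± 1.67, 25.1 ± 1.24 and 7.44 ± 0.164 FPKM. For TGFBR2 the order of the lower lines was exchanged. Its controls stood at 62.8 ± 1.28 FPKM in A549, 33.9 ± 1.36 FPKM in H446 and 13.9 ± 0.665 FPKM in BEAS-2B cells. SMAD7 and FN1 shared that order, SMAD7 at 11.5 ± 0.529, 6.49 ± 0.188 and 2.65 ± 0.441 FPKM. The difference between H446 and A549 controls in THBS1 was 0.25 ± 0.09 (SE, adjusted p = 0.0159), and it was not past the threshold without A549 control replicate 3 (adjusted p = 0.0723).

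Whether the response itself differed between lines was tested in 1 fit of all 18 libraries. For A549 against H446 cells, 6 of the 9 members other than INHBA differed in response, 3 with the higher response in A549 cells and 3 with the lower, beside 34.6% of all genes, 19.3% higher and 15.3% lower. THBS1 responded in opposite directions, by -0.78 ± 0.12 (SE, adjusted p = 0.000104) on the log2(FPKM + 1) scale, as did TGFB2, by -0.62 ± 0.12 (SE, adjusted p = 0.000834). SMAD3 responded less in A549 than in H446 cells (-0.41 ± 0.06 SE, adjusted p = 0.000119). The receptors responded more in A549 cells, TGFBR2 by 0.40 ± 0.07 (SE, adjusted p = 0.000177) and TGFBR1 by 0.23 ± 0.08 (SE, adjusted p = 0.0271). LTBP1 (0.42 ± 0.13 SE, adjusted p = 0.0209) also responded more in A549 cells. The calls of TGFBR1 and LTBP1 leaned on single libraries, with an adjusted p of 0.0744 for TGFBR1 and 0.0544 for LTBP1 without A549 10 Gy replicate 3. Of 23 alternatives, 6 ended the call of TGFBR1 (each a library left out) and 3 that of LTBP1 (the other 2 being H446 control replicate 2 left out and a pseudocount of 0.1). INHBA entered this fit through A549 cells alone, and at the near-zero levels of the other lines the offset of 1 FPKM holds their response near 0, so its values say nothing of a difference between lines. They were 0.23 (adjusted p = 0.0314) for A549 minus H446 and -0.22 (adjusted p = 0.0485) for BEAS-2B minus A549, and 0.16 (adjusted p = 0.690) and -0.12 (adjusted p = 0.773) with a pseudocount of 0.1, while the ratio of mean FPKM after 10 Gy to that in controls was 1.43 in BEAS-2B and 1.33 in A549 cells. SMAD7 did not pass (-0.41 ± 0.16 SE, adjusted p = 0.0582), although without the BEAS-2B library that stood apart, which enters the shared spread, its value was -0.41 (adjusted p = 0.00849), and it passed in 6 of the 23. FN1, called in A549 cells alone, did not differ past the threshold from H446 cells (0.34 ± 0.19 SE, adjusted p = 0.192) or from BEAS-2B cells (-0.31 ± 0.19 SE, adjusted p = 0.247 for BEAS-2B minus A549), except with the replicate numbers as a block (adjusted p = 0.014 and 0.0235) and, for the latter, without BEAS-2B control replicate 3 (-0.48, adjusted p = 0.045). The BEAS-2B libraries, which varied most in FN1, also enter the spread used for A549 against H446 cells. In the fits per line the FN1 response was 0.28 ± 0.04 (SE) in A549 and -0.05 ± 0.05 (SE) in H446 cells, against an SE of 0.18 in BEAS-2B cells. The missing call for A549 against H446 cells therefore does not show equal responses.

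For BEAS-2B against A549 cells, 6 of the 9 members other than INHBA differed in response, 3 with the higher response in BEAS-2B cells and 3 with the lower, beside 30.6% of all genes, 16% higher and 14.6% lower. SMAD7 differed most, by 0.76 ± 0.16 (SE, adjusted p = 0.00186), followed by THBS1, by 0.56 ± 0.12 (SE, adjusted p = 0.00207), and TGFBR1, by -0.44 ± 0.08 (SE, adjusted p = 0.000466). TGFBR2 differed by -0.39 ± 0.07 (SE, adjusted p = 0.000318). These 4 members kept their calls in all 23 alternatives, and without the BEAS-2B library that stood apart the values were 0.93 (adjusted p = 1.81e-05) for SMAD7, 0.56 (adjusted p = 0.00369) for THBS1, -0.40 (adjusted p = 0.00105) for TGFBR1 and -0.36 (adjusted p = 0.000669) for TGFBR2. LTBP1 differed by -0.41 ± 0.13 (SE, adjusted p = 0.027), and by -0.49 (adjusted p = 0.00858) without that library. Leaving out BEAS-2B control replicate 2, BEAS-2B 10 Gy replicate 3, A549 control replicate 1 or A549 10 Gy replicate 3 ended the LTBP1 call, with adjusted p of 0.0579 to 0.0688, as did a pseudocount of 0.1. TGFB1 (0.40 ± 0.14 SE, adjusted p = 0.0317) was also past the threshold, and in 14 of the 23 alternatives. It was not past it without that library, at 0.32 (adjusted p = 0.0789), so that 5 of the 9 members were called without it, beside 30% of all genes.

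For BEAS-2B against H446 cells, 3 of the 9 members differed, 1 with the higher response in BEAS-2B cells and 2 with the lower, beside 22.7% of all genes, 13.7% higher and 8.99% lower. Of those calls 60.5% were higher, or 44.5% with quantile normalization and 45.9% with the GC trend removed. TGFB2 differed by -0.60 ± 0.12 (SE, adjusted p = 0.00296) and SMAD3 by -0.28 ± 0.06 (SE, adjusted p = 0.00541), and both were called in all 23 alternatives. TGFB1 differed by 0.44 ± 0.14 (SE, adjusted p = 0.0281), which was not past the threshold without the BEAS-2B library that stood apart (0.36, adjusted p = 0.0703) or with the GC trend removed (0.14, adjusted p = 0.376), and in 8 more of the 23 alternatives. SMAD7 was past it only without that library (0.53, adjusted p = 0.00575), against 0.35 ± 0.16 (SE, adjusted p = 0.121) with it. TGFBR1 did not pass (-0.20 ± 0.08 SE, adjusted p = 0.07), except with quantile normalization (adjusted p = 0.0271), without BEAS-2B control replicate 2 (adjusted p = 0.032) and without BEAS-2B 10 Gy replicate 3 (adjusted p = 0.0144). The 3 comparisons share libraries, since the response of each line enters 2 of them and all 18 libraries enter the spread of each.

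**Figure D3:**
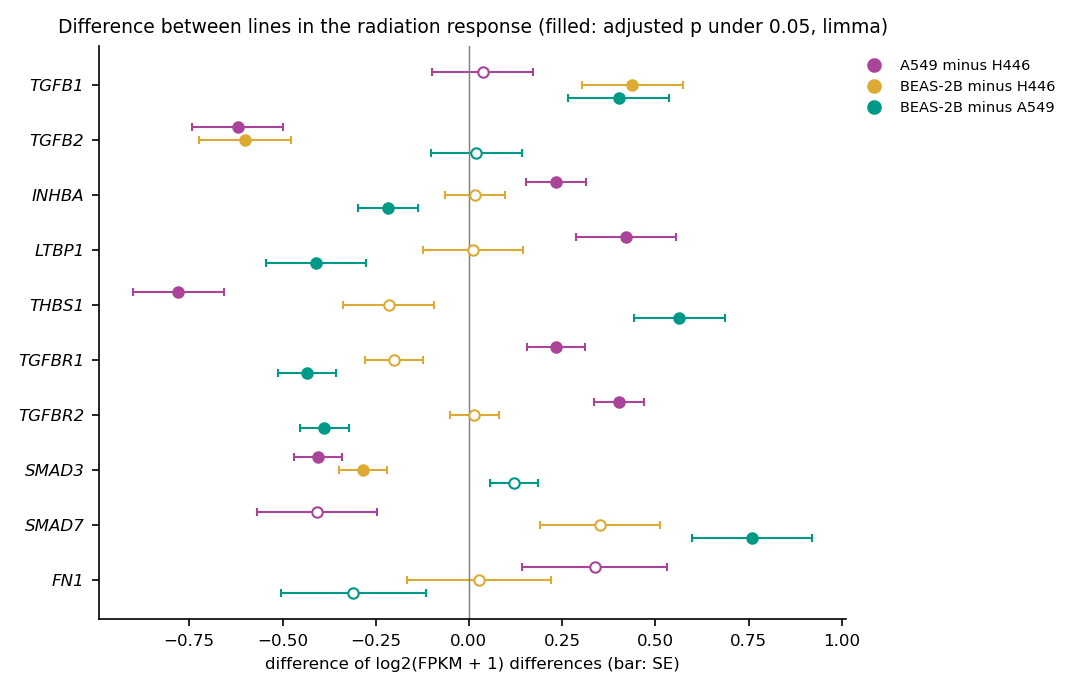
Difference between lines in the response to 10 Gy for each member, on the log2(FPKM + 1) scale, from 1 limma fit of 18 libraries. Bars are standard errors and filled points passed an adjusted p of 0.05. The value furthest from 0 is THBS1 in A549 minus H446 cells (-0.78), and none of the FN1 points is filled; the filled INHBA points rest on A549 cells alone.

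The rest of the pathway was followed in 84 further genes in 6 lists, each list split by role. In A549 cells 16 rose, 29 fell and 23 did not pass of the 68 tested (66.2% called, beside 51.7% of all genes, 25.3% higher and 26.4% lower), with a median difference of -0.12. In H446 cells 18 rose, 12 fell and 38 did not pass of 68 (44.1% called, beside 38.4% of all genes, 14.8% higher and 23.6% lower), with a median of 0.00. The count in H446 cells was 15 when all 18 libraries shared 1 fit. In BEAS-2B cells 0 of 68 passed, with a median of 0.04. The medians over all genes tested were 0.00, -0.03 and 0.00 in the same lines. In A549 cells the inhibitors and feedback genes gave 2 higher and 8 lower of 13, and the target genes 4 higher and 12 lower of 24. The latency and activation genes gave 4 higher and 2 lower of 9, the ligands 3 higher and 1 lower of 6, the receptors 2 higher and 4 lower of 9, and the Smad signal transducers 1 higher and 2 lower of 7. In H446 cells the counts were 5 higher and 1 lower of 16 inhibitors, 8 higher and 4 lower of 24 target genes, 2 higher and 3 lower of 8 latency and activation genes, 2 higher and 0 lower of 4 ligands, 0 higher and 2 lower of 8 receptors, and 1 higher and 2 lower of 8 Smad signal transducers.

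**Figure D4:**
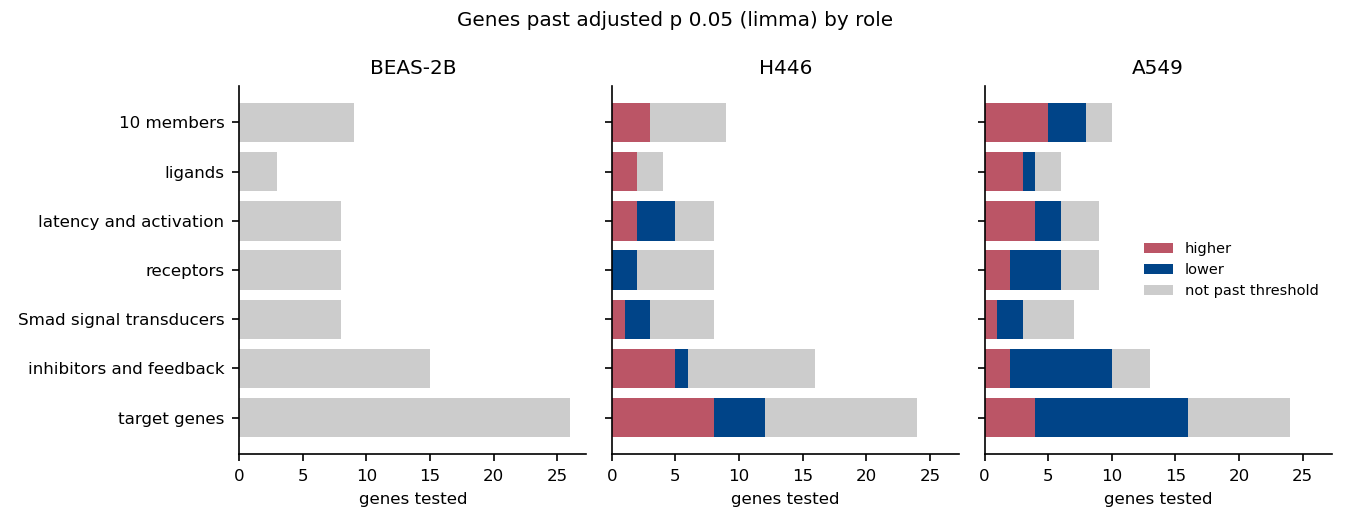
Number of genes tested in each role, for the 10 members (top bar) and the 84 other genes of the pathway, split into higher, lower and not past an adjusted p of 0.05 after 10 Gy. In A549 cells, 12 of 24 target genes and 8 of 13 inhibitors and feedback genes are in the lower class, and BEAS-2B cells hold no called gene.

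Among the target genes, CCN1 and CCN2, which encode matricellular proteins also induced by YAP and TAZ, moved in opposite directions in the cancer lines. CCN1 stood at 118, 114 and 120.5 FPKM in H446 controls and at 237, 237 and 247 FPKM after irradiation, and at 191, 188 and 186 FPKM in A549 controls and 38.3, 43.9 and 44 FPKM after irradiation. It rose by 1.02 ± 0.04 (SE, adjusted p = 4.54e-08) in H446 and fell by 2.14 ± 0.05 (SE, adjusted p = 3.41e-11) in A549 cells, on the log2(FPKM + 1) scale. CCN2, the connective tissue growth factor, rose from 11.01, 11.1 and 11.4 to 15.4, 17.2 and 16.2 FPKM in H446 cells, by 0.51 ± 0.05 (SE, adjusted p = 6.03e-05). In A549 cells CCN2 fell from 40.6, 42.1 and 43.3 to 10.5, 10.4 and 10.6 FPKM, by 1.90 ± 0.04 (SE, adjusted p = 3.41e-11). These are the directions taken by THBS1 and TGFB2 in the same lines. The responses of A549 and H446 cells differed by -3.16 ± 0.12 (SE, adjusted p = 4.50e-12) for CCN1 and by -2.41 ± 0.16 (SE, adjusted p = 8.63e-09) for CCN2.

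JUNB, an AP-1 subunit and early TGF-beta target, fell in A549 cells from 95.0, 94.3 and 89.4 to 48.4, 41.6 and 48.9 FPKM, by 0.99 ± 0.06 (SE, adjusted p = 6.55e-08). These groups did not overlap. The other way went ACTA2, smooth muscle actin and the usual marker of myofibroblasts, which rose in A549 cells from 13.9, 14.7 and 14.6 to 46.5, 44.02 and 47.3 FPKM, by 1.61 ± 0.04 (SE, adjusted p = 1.61e-10). ACTA2 is also described as a p53 target gene. In the A549 receptors and ligands, TGFBR3, the co-receptor betaglycan, rose by 0.76 ± 0.06 (SE, adjusted p = 1.05e-06), from 5.07, 4.66 and 4.63 to 8.64, 8.58 and 9.12 FPKM, and BMP4, a ligand of the BMP branch, rose by 0.75 ± 0.09 (SE, adjusted p = 3.26e-05), from 1.62, 1.22 and 1.80 to 3.21, 3.24 and 3.33 FPKM. BAMBI, a pseudoreceptor that damps the signal, rose by 0.80 ± 0.05 (SE, adjusted p = 2.48e-07), from 16.4, 14.6 and 16.5 to 28.8, 29.03 and 27.1 FPKM.

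In H446 cells the other genes that rose most were TIMP3, a tissue inhibitor of metalloproteinases, and SNAI2, a transcription factor of epithelial to mesenchymal transition. TIMP3 went from 27.2, 27.2 and 26.7 to 39.3, 38.5 and 37.7 FPKM, by 0.49 ± 0.04 (SE, adjusted p = 5.70e-06). SNAI2 went from 7.08, 6.30 and 6.68 to 8.58, 8.36 and 9.62 FPKM, by 0.36 ± 0.07 (SE, adjusted p = 0.0022), and lost its call when all 18 libraries shared 1 fit (adjusted p = 0.385). Those that fell most were FURIN, the protease that cleaves the TGF-beta precursor (-0.41 ± 0.04 SE, adjusted p = 9.49e-05), LTBP4, a binding protein of latent TGF-beta (-0.35 ± 0.07 SE, adjusted p = 0.00222), TAB1, an adaptor of the TAK1 kinase (-0.32 ± 0.06 SE, adjusted p = 0.00341), and ID3, a target of the BMP branch (-0.30 ± 0.04 SE, adjusted p = 0.000298). With the GC trend removed the falls were -0.23 (adjusted p = 0.000504) for FURIN, -0.11 (adjusted p = 0.101) for LTBP4, -0.16 (adjusted p = 0.0437) for TAB1 and -0.18 (adjusted p = 0.00172) for ID3, so LTBP4 lost its call. The rises with that trend removed were 1.07 (adjusted p = 2.91e-08) for CCN1, 0.57 (adjusted p = 4.04e-05) for CCN2, 0.52 (adjusted p = 1.99e-06) for TIMP3 and 0.31 (adjusted p = 0.00451) for SNAI2.

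In BEAS-2B cells SNAI2, ACTA2 and PMEPA1, a feedback inhibitor of Smad signalling, rose past the threshold once the library that stood apart was left out, and are named after their values were seen. The rises were 1.30 ± 0.11 (SE, adjusted p = 0.000137) for SNAI2, 0.86 ± 0.11 (SE, adjusted p = 0.00229) for ACTA2 and 0.57 ± 0.11 (SE, adjusted p = 0.022) for PMEPA1. Without that library 1.99% of all genes were called, and with all 6 libraries 0 of the 68 pathway genes tested were. The library was set apart by its p53 target genes, and ACTA2 is also described as one. Calls of genes that follow those targets are thus not independent of leaving it out. With all 6 libraries, SNAI2 stood at 1.79, 1.63 and 1.53 FPKM in BEAS-2B controls and at 5, 1.02 and 6.12 FPKM after irradiation, the middle value being the library that stood apart. In A549 cells SNAI2 fell from 7.85, 7.43 and 8.08 to 5.32, 5.26 and 5.92 FPKM, by 0.44 ± 0.06 (SE, adjusted p = 0.000135), and the responses of BEAS-2B and A549 cells differed by 1.17 ± 0.39 (SE, adjusted p = 0.0299), or by 1.74 (adjusted p = 4.68e-09) without that library.

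**Figure D5:**
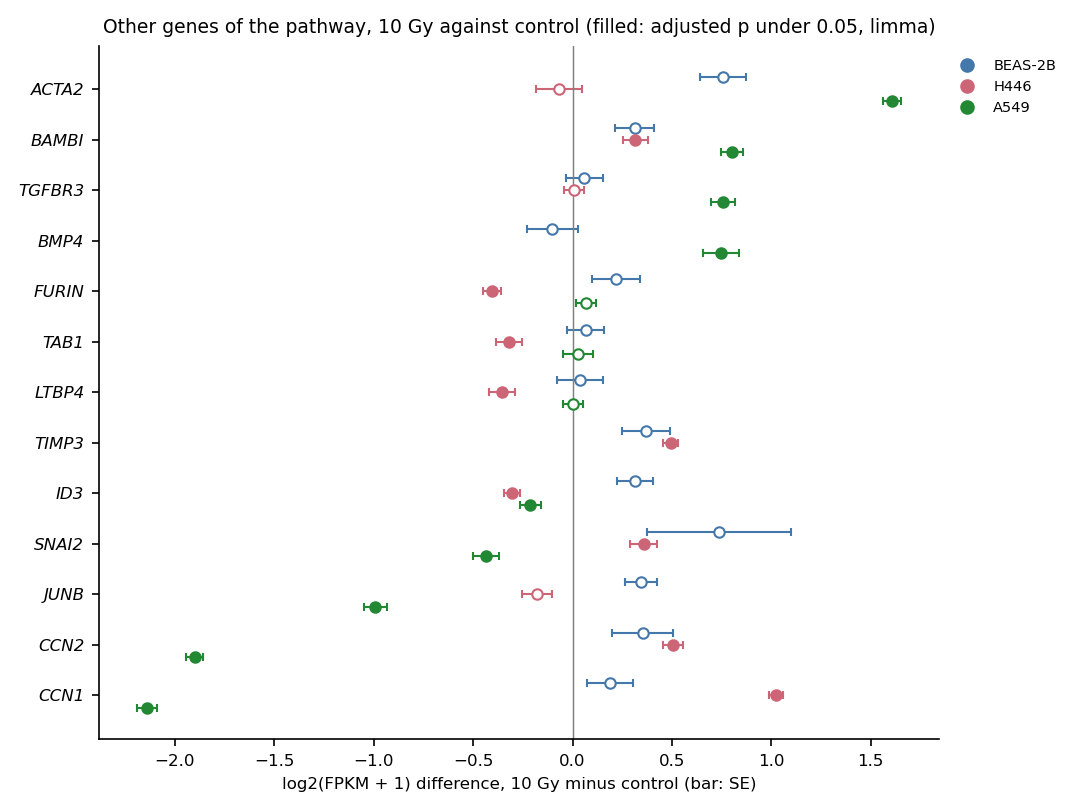
Log2(FPKM + 1) difference, irradiated minus control, of 13 other pathway genes named by rule, with standard errors (3 against 3 libraries); filled points passed an adjusted p of 0.05. BMP4 in H446 and TIMP3 in A549 cells were under the filter on low values. CCN1 and CCN2 lie far to the left in A549 cells (-2.14 and -1.90) and to the right in H446 cells (1.02 and 0.51).

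Across the 18 libraries, with the mean of each line's controls subtracted, the gene whose pattern was most like that of THBS1 was TRIO (Pearson r = 0.98), a guanine nucleotide exchange factor, and that of TGFBR2 was ARHGEF3 (r = 0.98), another such factor, followed by TGFBR3 (r = 0.97). The closest to SMAD7 was ATF3 (r = 0.95), a stress-induced transcription factor, and the closest to SMAD3 was TPX2 (r = 0.96), a spindle assembly factor. LTBP1 was closest to NID2 (r = 0.95), a basement membrane protein, and FN1 to OSMR (r = 0.93), the oncostatin M receptor. For TGFB1 it was PPARD (r = 0.96), for TGFB2 BTBD3 (r = 0.93), for INHBA DUSP16 (r = 0.93) and for TGFBR1 GOLGA8A (r = 0.97). These likenesses were ranked over 10452 genes and rest on 18 libraries that share lines and treatments.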

How the data were processed

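Poly(A) RNA of 18 libraries was read as single-end reads on a BGISEQ-500. The authors deposited 1 table of expression values per gene and library, taken here to be FPKM because the header names no unit and the totals differ between libraries. The submitters' processing notes list HISAT2 2.0.4, Bowtie2 2.2.5, RSEM 1.2.12 and hg38. FPKM carry no read counts, so the depth is unknown and no counting interval is given. At most 2.97% of values were identical between libraries of a line.

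Values were transformed to log2(FPKM + 1), which understates changes of low genes. Genes with at least 1 FPKM in at least 3 libraries of a fit were tested with limma 3.58.1 (lmFit, eBayes with trend) in R 4.3.3, with Benjamini-Hochberg adjustment over all of them and a threshold of 0.05. Radiation responses were fitted per line, differences in response in 1 fit of 6 group means (13071 genes), and control levels in 1 fit of 9 libraries (12854 genes). The tests were checked on simulated data. The GC trend is a loess curve (span 0.5) on transcript GC content, removed from each library for 17850 genes with a value.

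The members and the lists were chosen with earlier results of these data known. All 10 members are named. Of the 84 other genes, those named are, for each line, the 4 that rose and the 4 that fell most of the genes called with a mean of at least 1 FPKM, and 1 gene within that rule is not reported here. Replicate numbers were not taken as pairs: in no line did every pair of equal numbers correlate over 0.1. Alternatives were a pseudocount of 0.1, no filter, quantile normalization, the GC trend removed, a replicate block, no variance trend, all 18 libraries in 1 fit, and each library left out, plus equal totals, added after the data were seen. The plots were drawn with matplotlib 3.10.9 and the tables written with pandas 2.3.3 (Python 3.11.15). Reads of genes that have a close copy may have been split between the copies.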

Additional observations from a re-analysis of the deposited data

Results flagged for a closer look

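The response to 10 Gy differed between lines, by the test of the difference itself (limma, log2(FPKM + 1) scale), for 17 pairs of a member and a comparison, 2 of them with INHBA. The share of all genes called was 34.6% for A549 minus H446, 30.6% for BEAS-2B minus A549 and 22.7% for BEAS-2B minus H446. In A549 minus H446 cells these were THBS1 (-0.78), TGFB2 (-0.62), LTBP1 (0.42), SMAD3 (-0.41), TGFBR2 (0.40), TGFBR1 (0.23) and INHBA (0.23). In BEAS-2B minus A549 cells they were SMAD7 (0.76), THBS1 (0.56), TGFBR1 (-0.44), LTBP1 (-0.41), TGFB1 (0.40), TGFBR2 (-0.39) and INHBA (-0.22). In BEAS-2B minus H446 cells they were TGFB2 (-0.60), TGFB1 (0.44) and SMAD3 (-0.28). INHBA was tested through its level in A549 cells alone, and its values say nothing of a difference between lines: with a pseudocount of 0.1 the adjusted p were 0.690 and 0.773. The comparisons share libraries. The groups hold 3 libraries each, so no test for a single outlying library was made within a group. The irradiated BEAS-2B library 2, at control level for 12 p53 target genes (0.06, against 1.09 and 1.41), enters the comparisons with BEAS-2B cells. Through the shared spread it also enters A549 minus H446, where 37.9% of all genes were called without it. For the members named there, the report gives values without it.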

How the results depend on the processing

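FPKM hold no read counts, so depth could not be weighed, and 3 libraries a group limit every value. In BEAS-2B cells, where limma called 0 genes, no filter on low values gave 1 call over all genes, the replicate block gave 439 over all genes, 1 member (TGFB1) and 7 other pathway genes, and all 18 libraries in 1 fit gave 842, 1 and 9. The replicate numbers pair nothing by the labels. The correlation of deviations between equal numbers was -0.13, 0.32 and 0.31 in BEAS-2B, 0.19, 0.01 and 0.08 in H446 and 0.01, -0.05 and -0.10 in A549 cells, and control 1 of BEAS-2B cells correlated best with irradiated library 3. In H446 cells the fit of all 18 libraries called 15 other pathway genes against 30. For BEAS-2B minus H446, removing the GC trend left 1367 calls against 2971.

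With 1 library left out, calls over all genes ran from 0 to 233 in BEAS-2B (233 without 10 Gy replicate 2), 3201 to 4709 in H446 and 5381 to 5713 in A549 cells, members from 0 to 0, 3 to 4 and 7 to 8, and other pathway genes from 0 to 4, 20 to 32 and 40 to 44. Differences in response ran from 3849 to 5038 calls (members 4 to 8) for A549 minus H446, 3269 to 4711 (5 to 7) for BEAS-2B minus A549 and 1811 to 4532 (2 to 4) for BEAS-2B minus H446. The low of 4 members came without A549 10 Gy replicate 3, the 1811 without BEAS-2B control replicate 1 and the 4532 without BEAS-2B 10 Gy replicate 3. Differences between controls, in that order, ran from 10058 to 10996 calls (members 8 to 10), 10122 to 10711 (8 to 10) and 9990 to 10447 (9 to 9).

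The sign turned in 44 alternatives of 14 results, 0 of them past the threshold. With the GC trend removed these were LTBP1 (-0.019) and FN1 (0.028) in BEAS-2B, TGFB1 (0.12) and TGFBR1 (-0.031) in H446, LTBP1 (-0.089) and TGFBR2 (-0.0037) in BEAS-2B minus H446, and TGFB1 (-0.13) in A549 minus H446. With quantile normalization they were INHBA (-0.015), LTBP1 (-0.049) and TGFBR2 (-0.013) in BEAS-2B minus H446, TGFB2 (-0.023) in BEAS-2B minus A549, and TGFB2 between BEAS-2B and A549 controls (-0.046). With 1 library left out, the values ran from -0.021 to 0.14 for LTBP1 and -0.20 to 0.15 for FN1 in BEAS-2B, and from -0.023 to 0.090 for LTBP1, -0.016 to 0.034 for SMAD7 and -0.11 to 0.0021 for FN1 in H446 cells. In BEAS-2B minus H446 they ran from -0.0085 to 0.045 for INHBA, -0.072 to 0.12 for LTBP1, -0.018 to 0.047 for TGFBR2 and -0.14 to 0.21 for FN1, in BEAS-2B minus A549 from -0.073 to 0.11 for TGFB2, and in A549 minus H446 from -0.011 to 0.12 for TGFB1. The cause of these changes was not tested. Of the values of named genes under the other alternatives, 5 radiation responses and 12 differences in response lost their call and 2 and 6 gained one.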
